A study of Mus musculus with 28 samples.

Results

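The clustered protocadherin genes were examined in peak lists of CTCF, Rad21 and Ldb1 from mouse olfactory sensory neurons. Members were the RefSeq genes of assembly GRCm38.p6 (mm10) on chromosome 18 whose symbols place them in the alpha, beta or gamma cluster. There were 58 among 49943 annotated genes on the main chromosomes: 14 alpha, 22 beta and 22 gamma genes. Of these, 57 are annotated as protein-coding and Pcdhgb8 as a transcribed pseudogene. They lie from 36930285 to 37841873 (912 kb), and peaks were also listed for 200 kb on both sides.

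Clustered protocadherins are adhesion proteins of the neuronal surface that bind only matching partners, so that the branches and axons of one neuron recognise each other. Each alpha and gamma gene begins with a variable exon that has its own promoter and is spliced to constant exons shared by its cluster, whereas a beta gene is a single variable exon. Most promoters are chosen at random in each cell and hold an element bound by CTCF, a DNA-binding protein of domain boundaries. CTCF and cohesin, the ring complex of which Rad21 is a subunit, are known to bring a chosen promoter to enhancers that lie within or beyond the clusters. The promoter element is known to be missing from Pcdhac2, Pcdhb1, Pcdhgc4 and Pcdhgc5. In olfactory neurons these proteins are needed for axons to sort into glomeruli. Ldb1 does not bind DNA itself and reaches chromatin through other proteins, among them Lhx2, a LIM-homeodomain factor.

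Of the 28 samples of the series, 11 libraries with a peak list were used. Control neurons came from OMP-IRES-GFP mice, in which Omp, a gene of mature olfactory neurons, drives the green reporter: they gave 2 libraries of CTCF, 2 of Rad21 and 3 of Ldb1. Ldb1 was also mapped in 2 libraries from Lhx2fl/fl mice that also carry OMP-IRES-Cre and the reporter Rosa-CAG-tdtom+/fl (Lhx2 KO). Omp drives Cre there, so that Lhx2 is deleted once a neuron matures. A peak list does not show whether the deletion was complete. Another 2 Ldb1 libraries came from M28-IRES-GFP mice, with cells sorted for the single odorant receptor Olfr1507. The control mice carry neither Cre nor a floxed allele, so the loss of Lhx2, Cre and the reporter cannot be told apart. Ages and the number of animals behind a library were not stated. Whether each library had its own animals is also unstated, and a p-value here reflects library-to-library spread, technical or not. Cells were fixed in bulk: a weak peak can come from strong binding in few cells or weak binding in many, and these cannot be told apart.

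A peak list gives a position and a score, and the score was used only to rank peaks within 1 list, as a percentile: the percent of the list's peaks with a score at or below it. List lengths were 27609 and 34210 peaks for CTCF, 10487 and 28151 for Rad21, and 16067 to 28879 for Ldb1 in control neurons. They were 4290 and 542 for Lhx2 KO, and 5095 and 21250 for Olfr1507. The depth in reads is unknown. Each factor was mapped with 1 antibody, on cells fixed before sorting. Peaks hold no RNA level, so the labelled cell type could not be checked by expression. Among 4 of 6 markers of mature neurons with a known start, Gng13 alone had a peak in both libraries of a factor (Rad21, at percentiles 32.4 and 60.3).

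In all, 177 peaks of the 11 lists lay over the genes and their flanks, at 68 separate sites, of which 44 were in the gene span and 24 in the flanks. At 25 sites the peak came from 1 library alone. CTCF had a peak at 46 sites, Rad21 at 31 and Ldb1 of control neurons at 21. In the span CTCF peaks of both libraries made 15 regions, or 16.5 per Mb against 9.14 per Mb over the genome. Rad21 gave 5 regions (5.48 per Mb against 3.63) and Ldb1, with peaks in at least 2 of its 3 libraries, gave 6 regions (6.58 per Mb against 8.37). Of the 27 CTCF regions of the whole window, 2 lay before the alpha cluster, 1 in it, 2 between alpha and beta, 2 in the beta cluster, 10 in the gamma cluster and 10 beyond it. With CTCF library 2 alone the count of CTCF regions in the span was 26, and with library 1 alone it was 21. The number per Mb over the genome was not counted for single libraries.

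**Figure D1:**
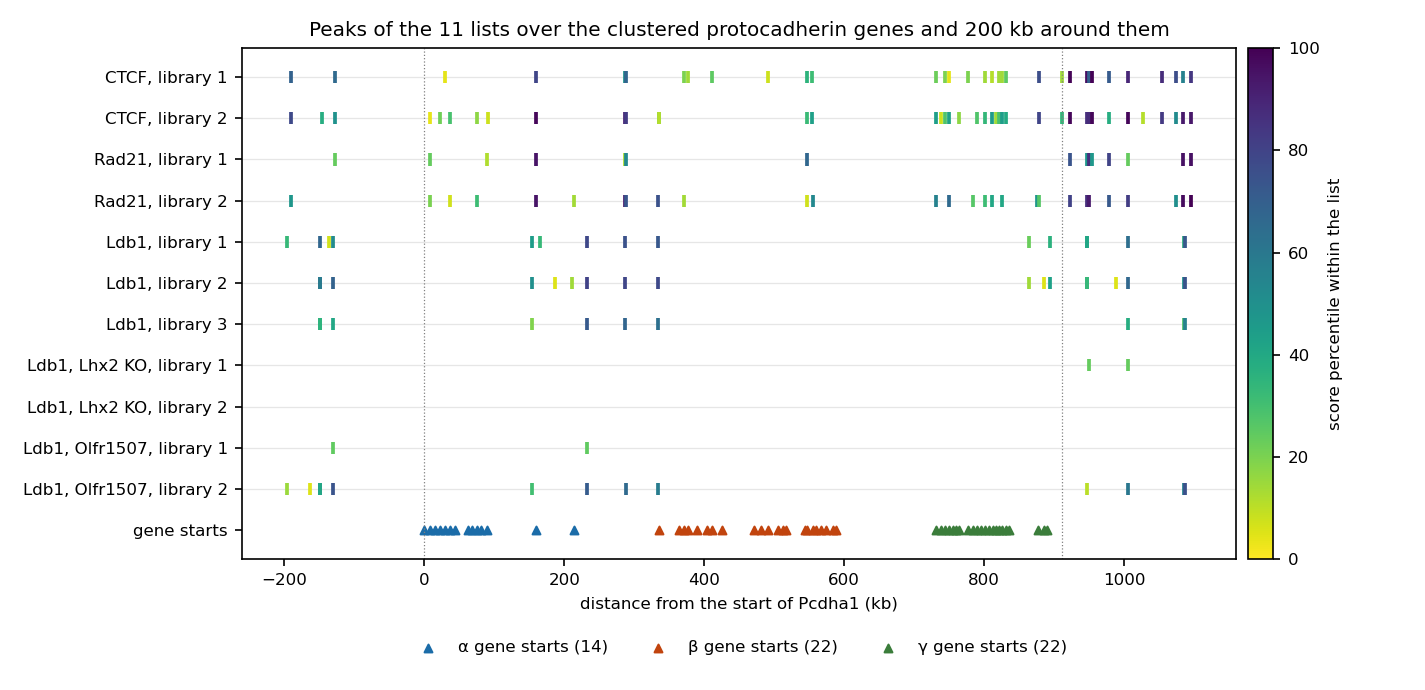
Peaks of each of the 11 lists (rows) by distance from the start of Pcdha1 in kb, coloured by score percentile within the list; triangles are the 58 gene starts and dotted lines the ends of the gene span. CTCF and Rad21 peaks over the gene starts are mostly light (low percentile), those beyond the gamma cluster mostly dark, and Ldb1 peaks are missing over most of the beta and gamma genes.

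CTCF lay at a minority of the variable promoters when both libraries were required, and most often in the gamma cluster. Within 1 kb of the gene start, 11 of 58 members had a CTCF peak in both libraries, against 10.4% of 17492 protein-coding genes on other chromosomes. They were 8 of 22 gamma genes, 2 of 22 beta genes and 1 of 14 alpha genes. Neighbouring starts are at least 3779 bases apart, so no peak was counted for 2 members. The share in the alpha and beta clusters was near that of all genes, and the share in the gamma cluster was 36.4%. No test was made of this difference, since the genes were chosen with results of these data known. With a peak in either library the count was 27 of 58, against 26.4% of protein-coding genes. Library 1 alone gave 17 members (10.7% of protein-coding genes) and library 2 alone 21 (26.1%). Among the upper 50% of each list by score, 1 of 58 members had CTCF in both libraries, against 4.75% of protein-coding genes, so that the members were then below all genes.

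Both CTCF libraries had peaks most often at gamma promoters (9 of 22 and 12 of 22), and they differed in which single promoters they held. Of the beta promoters, 4 had a peak in CTCF library 1 alone and 1 in library 2 alone. Of the alpha promoters, 1 had a peak in library 1 alone and 5 in library 2 alone, and of the gamma promoters 1 and 4. At 31 members neither CTCF library had a peak, and at 27 members none of the 11 lists had one: 6 alpha, 15 beta and 6 gamma genes. The share of all protein-coding genes that were blank in every list was not counted. CTCF or Rad21 in any library had a peak at 36.2% of protein-coding genes and at 30 of 58 members, so blanks are not particular to these genes. Such a blank says only that no peak passed the authors' threshold.

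The promoter peaks were weak by rank, with a single exception. In CTCF library 1 the 17 peaks at member starts had a median percentile of 19.7, against 46.2 for the 1867 peaks at starts of protein-coding genes. In library 2 the 21 peaks had a median of 29.2, against 37.8 for 4571. Only Pcdhac1 was above the 50th percentile, in each library. Among all protein-coding genes with a peak, 46.2% were above it in library 1 and 40.0% in library 2.

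Pcdhac1, a C-type alpha gene that is expressed in many neurons without the random choice, had the strongest promoter signal of both proteins. Its CTCF peaks stood at percentiles 79.4 and 98.1 (rank 5698 of 27609 and 642 of 34210). Its Rad21 peaks stood at 94.7 and 94.8, rank 553 of 10487 and 1472 of 28151. All 4 peaks were centred before the gene start, at -189 and -178 bases for CTCF and -184 and -168 bases for Rad21, in a site from 37089776 to 37090120. No Ldb1 list had a peak there.

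The other alpha promoters were low or blank. Pcdha2 had Rad21 in both libraries, at percentiles 23.5 and 20.3, with a CTCF peak in library 2 alone at 3.87. Its Rad21 peaks were thus weak in both lists, and its CTCF peak was among the lowest of its list. Pcdhac2, the last alpha variable gene and the isoform used by serotonergic neurons, had no CTCF peak in either library and 1 Rad21 peak, at percentile 13.9 of library 2.

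In the beta cluster the members with CTCF in both libraries were the neighbours Pcdhb16 and Pcdhb17. Pcdhb16 had CTCF at percentiles 35.4 and 32.3, and Rad21 at 66.9 in library 1 and 7.18 in library 2. It was the single beta or gamma gene with Rad21 in both libraries. Pcdhb17 had CTCF at 31.4 and 43.5 and Rad21 in library 2 alone at 53.3. From there to the first gamma gene no list had a peak over 176 kb, the longest blank stretch of the window, in which Pcdhb18 to Pcdhb22 start (5 genes, named after their values were seen).

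Pcdhb1, the first beta gene, differed from the rest of its cluster in holding Ldb1. All 3 control Ldb1 libraries had a peak before its start, centred at -254, -312 and -307 bases, at percentiles 73.0, 78.1 and 63.4. Rad21 library 2 had a peak at the same place, at percentile 74.8. CTCF library 2 had a weak one at 29.2, centred at -16 bases. Neither CTCF library 1 nor Rad21 library 1 had a peak there, so under the rule of both libraries Pcdhb1 counts for Ldb1 alone.

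The 8 gamma genes with CTCF in both libraries belong to the A and B types, which alternate along the cluster. Library 1 gave them low percentiles throughout, from 3.95 at Pcdhgb1 to 24.8 at Pcdhgb8. In library 2 they ran from 27.4 at Pcdhga3 to 45.4 at Pcdhgb6. Pcdhgb6 itself was at 11.1 in library 1, and Pcdhgb1 at 42.4 in library 2. In library 2 the other members of this set were Pcdhga1 at 44.5, Pcdhga11 at 44.5, Pcdhgb8 at 39.1, Pcdhgb5 at 33.7 and Pcdhgb7 at 29.2. In library 1 they were at 22.3 (Pcdhga1), 14.4 (Pcdhga11), 14.4 (Pcdhgb5) and 14.4 (Pcdhgb7), and Pcdhga3 was at 19.7. All 8 thus lay below the 50th percentile in both lists. The lists differ in length, so the same percentile does not mark the same rank in them. The pseudogene Pcdhgb8 was among them, with peaks centred at -157 and -158 bases from its start.

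The C-type gamma genes, which lie apart at the end of the cluster next to the constant exons, lacked CTCF at their starts. Pcdhgc3 had a Rad21 peak in library 2, at percentile 47.4, and no CTCF peak within 1 kb. A CTCF region lay 2.55 kb after its start, from 37808785 to 37809128, at percentiles 76.4 and 79.6, with Rad21 in library 2 at 26.2. Pcdhgc4 had a single Ldb1 peak, at percentile 5.29 of control library 2, and Pcdhgc5 had no peak of any list.

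**Figure D2:**
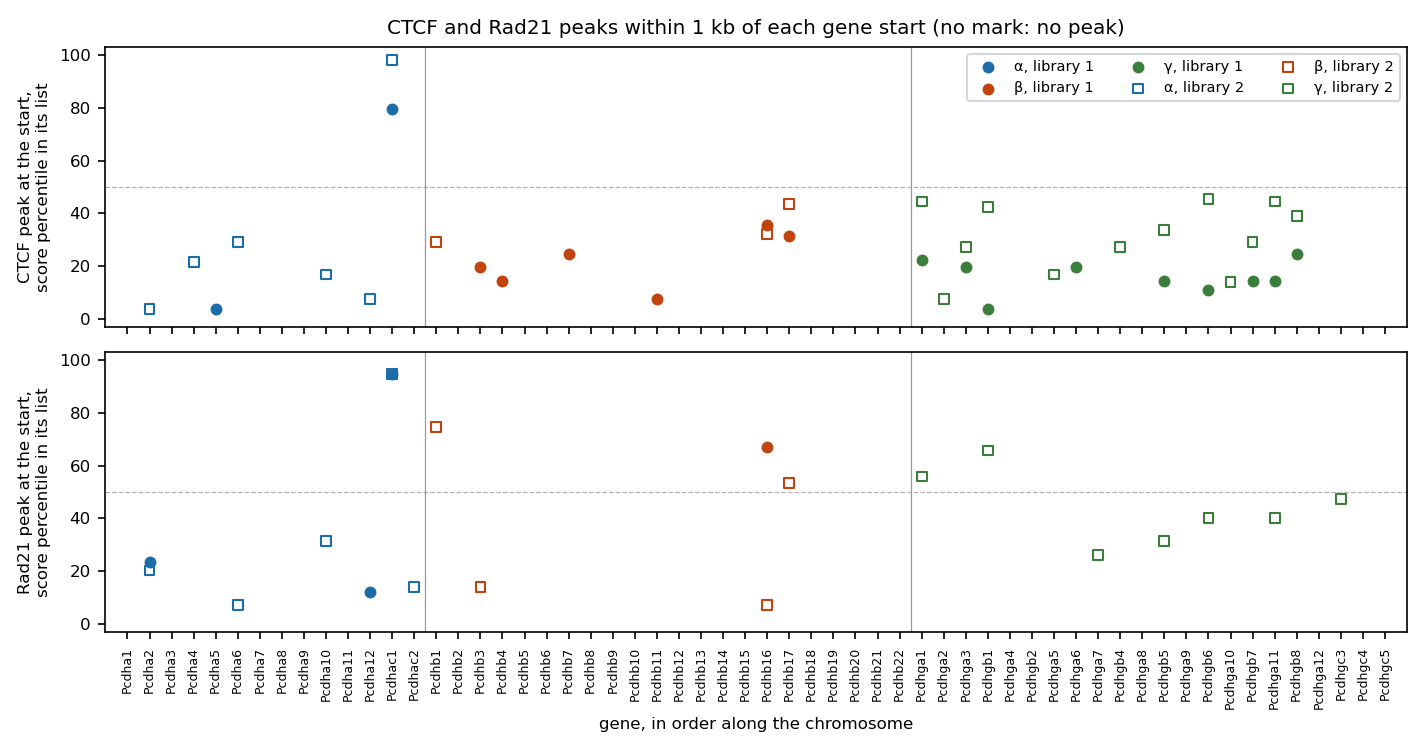
Score percentile of the CTCF (top) and Rad21 (bottom) peak within 1 kb of each of the 58 gene starts, in chromosomal order; filled circles are library 1, open squares library 2, colours the alpha, beta and gamma clusters, and the dashed line the 50th percentile. Pcdhac1 stands above the line for both proteins, and all other CTCF marks lie below it.

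Rad21 was found at fewer promoters, and its count rested on the library. In both libraries it had a peak at 3 of 58 starts (Pcdha2, Pcdhac1 and Pcdhb16), near the 4.53% of protein-coding genes. Library 2 alone gave 16 members, against 29.5% of protein-coding genes, and library 1 alone gave 4, against 4.61%. Rad21 in any library reached 17 members, near the 29.6% of all genes. At 14 of the 17, CTCF also had a peak at the start. The other 3 were Pcdhac2, Pcdhga7 and Pcdhgc3 (Pcdhga7 named after its values were seen). Most protein-coding genes with Rad21 had CTCF too: 5170 had Rad21 in any library and 4625 had CTCF, of which 1159 had no Rad21. CTCF or Rad21 in any library covered 30 of 58 starts, against 36.2% of protein-coding genes, and CTCF in both with Rad21 in any covered 8, against 8.42%. Conversely 13 members had CTCF in at least 1 library and no Rad21, against 6.63% of protein-coding genes. In the gamma cluster all 7 Rad21 peaks came from library 2, and 5 of them were at genes with CTCF in both libraries. Among these, Pcdhgb1 was at percentile 65.8, Pcdhga1 at 55.9, Pcdhgb6 and Pcdhga11 each at 40.3, and Pcdhgb5 at 31.5.

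Most of the peaks were centred close to the gene start, and mostly before it. In CTCF library 1 all 17 peak centres lay within 200 bases of the start, from -189 to -2 bases, with a median of -96. In library 2, 19 of 21 centres were within 200 bases, with a median of -61. The median for protein-coding genes was -86 in library 1 and 1 in library 2, so in library 1 it was near that of the members. Among protein-coding genes with a CTCF peak within 1 kb, 38.9% of centres in library 1 and 48.4% in library 2 were that close. The 2 exceptions were Pcdha4 and Pcdha12, named after their values were seen. Their library 2 peaks were centred 549 and 453 bases after the start, that is, downstream of it. Of the 16 Rad21 peaks of library 2, 15 were within 200 bases, against 58.2% for protein-coding genes. Their centres ran from -277 to 49 bases, so some lay after the start.

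**Figure D3:**
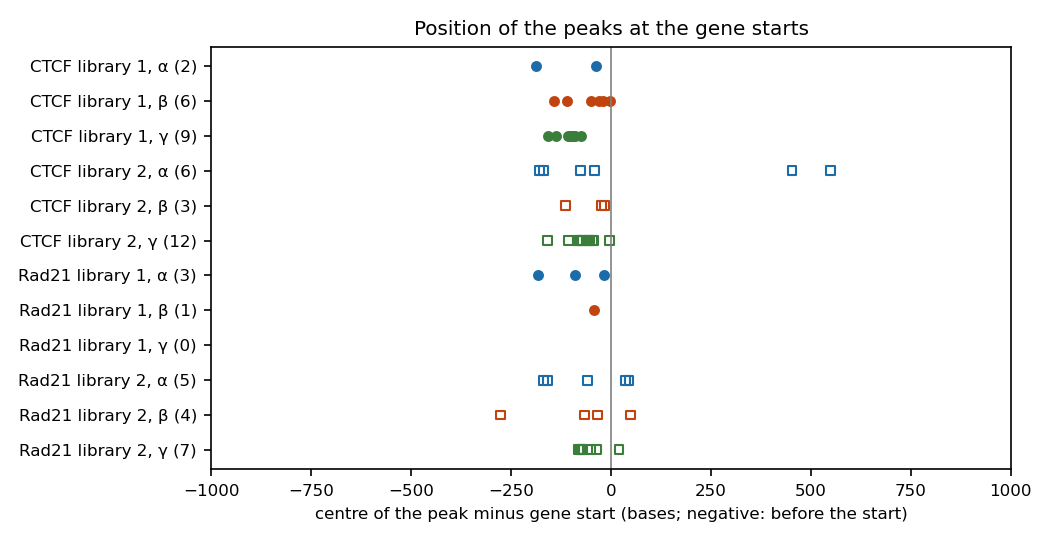
Centre of each CTCF and Rad21 peak minus the gene start in bases, by library and cluster (number of peaks in brackets). Nearly all marks fall within 200 bases of the start and mostly before it, and 2 alpha peaks of CTCF library 2 lie 453 and 549 bases after it.

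CTCF regions of the window away from the promoters ranked higher than those at the promoters. The 11 CTCF regions at member starts had a mean percentile (over both libraries) with a median of 29.5 and a range of 21.8 to 88.7. The 16 other CTCF regions of the window had a median of 76.6 (24.03 to 99.2), and the 10 beyond the gamma cluster a median of 87.1. Of these 16, 12 lay in the flanks, outside the gene span. The percentile of all CTCF regions of the genome was not taken, so 76.6 cannot be called high or ordinary. Rad21 had a peak in both libraries at 2 of the 11 and at 9 of the 16. Over the whole window 11 of 27 CTCF regions lay at a Rad21 region, near the 36.8% of all CTCF regions of the genome. Rad21 library 1 had a peak at 13 of 27 (37.9% of all) and library 2 at 20 of 27 (65.7% of all).

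A pair of CTCF regions lay between the alpha and beta clusters, 28.8 and 29.5 kb after the last alpha gene end, their CTCF centres 924 bases apart. An enhancer of alpha genes is known downstream of the alpha constant exons; its coordinates were not used here. The first site, from 37217295 to 37218031, held CTCF at percentiles 49.5 and 90.8 and Rad21 at 12.01 and 93.3. All 3 control Ldb1 libraries also had a peak there, at 74.7, 79.2 and 67.9. The Ldb1 peaks were offset, with the CTCF centres at -249 and -273 bases from the mean Ldb1 centre. The second site, from 37218239 to 37218582, held CTCF at 67.2 and 83.1 and Rad21 at 52.9 and 73.7, and no Ldb1 list had a peak on it. At the first site Rad21 was near the bottom of list 1 and near the top of list 2.

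The strongest CTCF regions lay beyond the gamma cluster, in Diaph1, which encodes an actin-nucleating formin, where 4 of the 5 highest by mean percentile were found. The region from 37883489 to 37883841, 41.8 kb after the gamma end, stood at 99.5 and 98.8, with Rad21 in library 1 alone at 46.8. The region from 37852134 to 37852477, 10.4 kb after the gamma end, stood at 99.1 and 98.6, with Rad21 at 74.2 and 80.1. The 2 libraries ranked both regions near the top of their lists.

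The other two Diaph1 regions also held Ldb1. The region at 93.7 kb after the gamma end (37935267 to 37935845) had CTCF at 89.3 and 98.7, and that at 35.6 kb (37877248 to 37877694) had 96.5 and 86.4. The last of these CTCF regions, from 38024866 to 38025209 at the edge of the long noncoding RNA gene Gm30093, had CTCF at 84.2 and 93.7. It was also the highest Rad21 region of the window, at 96.0 and 99.7.

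The remaining high Rad21 regions were also shared with CTCF. One lay from 38013686 to 38014074 (Rad21 at 95.4 and 96.9, CTCF at 56.3 and 93.3). Another lay in Diaph1, from 37880205 to 37880559, 38.5 kb after the gamma end (Rad21 at 87.1 and 93.3, CTCF at 68.8 and 87.7). The region at 10.4 kb and Pcdhac1 completed the 5 highest by mean Rad21 percentile, so 1 of the 5 was at a member's promoter. Over the window 11 of 12 Rad21 regions lay at a CTCF region, near the 92.5% of all. Downstream enhancers of the beta cluster are known beyond the gamma constant exons; their coordinates were not used here. The gamma constant end itself held a weak CTCF region (37841334 to 37841677, percentiles 14.4 and 33.7).

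Ldb1 was rare at the promoters of these genes. Pcdhb1 was the single member with Ldb1 in at least 2 control libraries, against 11.7% of protein-coding genes. With any control library the count was 2 of 58, against 19.9%. No control Ldb1 list had a peak over 528 kb from Pcdhb1 to the later gamma genes, a stretch in which 40 members start. Likewise 12 members start in the 284 kb before the first alpha Ldb1 site. A site inside the long alpha or gamma bodies was not assigned to members, since those bodies overlap.

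Of the 14 Ldb1 regions of the window, 6 lay in the span and 8 in the flanks. The highest by mean percentile was in the alpha cluster, 19.3 kb after the start of Pcdhac2 (37162782 to 37163161). The 3 control libraries placed it at 78.5, 80.3 and 72.2 (mean 77.0 ± 4.26, SD, n = 3), and neither CTCF nor Rad21 had a peak on it. After it came the site between alpha and beta described above (mean 73.9 ± 5.68, SD, n = 3). Next came the promoter of Pcdhb1 (71.5 ± 7.46, SD, n = 3). These 3 were followed by a region in the 3' flank, from 38017233 to 38017628, at 73.0, 74.4 and 56.2. The next lay before the alpha cluster in Hars, a histidyl-tRNA synthetase gene, at 67.4, 75.1 and 42.9. Each of the 3 control libraries placed these first 3 sites in the same order. Library 3, whose list is the shortest of the 3, gave the lowest percentile at each of them.

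The other 3 Ldb1 regions of the span were weaker. A region at -6.00 kb from Pcdhac1 stood at 45.2, 50.3 and 18.9. Regions at -12.8 kb from the start of Pcdhgc3 and 4.52 kb after that of Pcdhgc5 were found in control libraries 1 and 2 alone, at 22.7 and 14.2 and at 36.0 and 43.1. Of the 14 regions, 9 had peaks in all 3 control libraries, near the 65.2% of all Ldb1 regions. A CTCF region overlapped 3 of the 14, against 4.52% of all, and 10 of the 14 held no CTCF or Rad21 peak of any library. The share of all Ldb1 regions without any such peak was not counted. By single library, CTCF library 2 had a peak at 4 of the 14 (9.22% of all). Rad21 library 2 also had one at 4 of the 14 (23.3% of all), so most Ldb1 regions of the genome lack each of them too. The 3 with CTCF were the site between alpha and beta and 2 in Diaph1.

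Ldb1 was then compared between the control and the Lhx2 KO libraries. How far its binding here needs Lhx2 was not tested, since Lhx2 loss, Cre and the reporter cannot be told apart. None of the 58 members had an Lhx2 KO peak at its start, against 5.97% of protein-coding genes with one in at least 1 library. The 6 Ldb1 regions of control neurons in the span were blank in both KO libraries. Most Ldb1 regions elsewhere were blank too: 12.7% of all had a peak of KO library 1 and 2.17% had a peak of KO library 2. Over span and flanks the control libraries had 16, 18 and 10 peaks and the KO libraries 2 and 0. Per 1000 peaks of the list this was 0.643, 0.623 and 0.622 in control and 0.466 and 0 in KO, and the groups did not overlap. The list of KO library 2 holds 542 peaks. At the control rates less than 1 peak is expected in a list of that length, so its 0 cannot show a lower rate. The KO mean was 0.233 ± 0.330 (SD, n = 2) and the control mean 0.630 ± 0.0117 (SD, n = 3). The difference was -0.397 (two-sided p = 0.1 by exact permutation of the libraries, adjusted 0.1). With 10 assignments of 5 libraries this is the smallest p possible. It was -0.630 without KO library 1 and -0.163 without KO library 2.

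The KO lists were the shortest of the Ldb1 lists, and the part of list length in this difference was tested only by comparing lists of one length. At the length of KO library 1, the 4290 strongest peaks of each control list held 0 peaks in the window, and at 542 peaks they also held 0. KO library 1 itself had 2. In control neurons none of the Ldb1 sites around these genes ranked among the 4290 strongest. A KO library 1 peak lay on 1 of the 14 control regions, against 12.7% of all Ldb1 regions, and library 2 at 0, against 2.17%.

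Both peaks of KO library 1 lay in Diaph1 at sites with CTCF and Rad21 in both libraries, each at percentile 23.7. This is the lowest score of that list (9), which 23.7% of its peaks share, so no peak of the list ranks below them. One was at the region 93.7 kb after the gamma end, where the control libraries had Ldb1 at 63.8, 66.7 and 37.8 and Rad21 stood at 23.5 in library 1 and 82.3 in library 2. The other was at the region 38.5 kb after the gamma end, where no control or Olfr1507 list had an Ldb1 peak. Of all CTCF regions of the genome, 1.01% had a peak of KO library 1, and in the window 2 of 27 did.

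**Figure D4:**
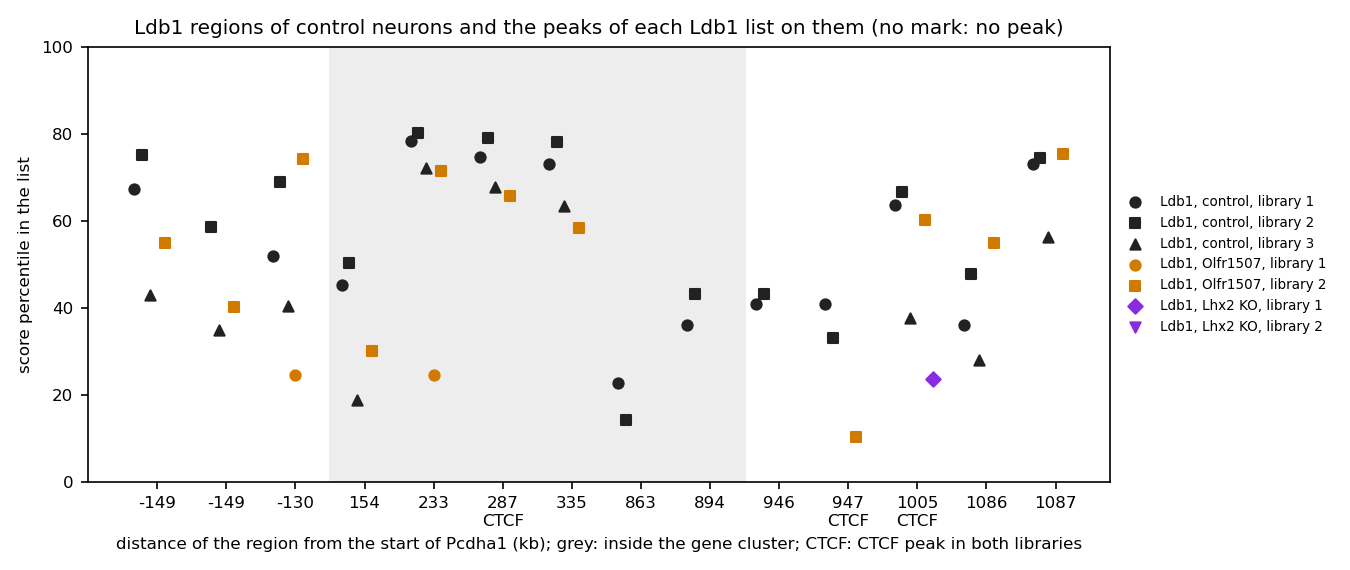
Score percentile of the peak of each Ldb1 list on the 14 control Ldb1 regions, ordered by distance from the start of Pcdha1 in kb; grey marks regions inside the gene span. The regions at 233, 287 and 335 kb stand between 63.4 and 80.3 in the control libraries, and a single Lhx2 KO peak appears, at 1005 kb.

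Neurons that express Olfr1507 were compared with control neurons as a single receptor type within the mixed population. In the second, longer Olfr1507 list 4 of the 6 Ldb1 regions of the span and 11 of the 14 of the window had a peak, near the 73.5% found genome-wide. At the alpha site 19.3 kb after Pcdhac2 it stood at 71.4, at the site between alpha and beta at 65.7 and at Pcdhb1 at 58.3. Pcdhb1 was the single member with an Olfr1507 peak at its start, against 9.25% of protein-coding genes. The region before Pcdhac1 was at 30.1. The weak regions near Pcdhgc3 and Pcdhgc5 were blank in both Olfr1507 lists.

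The first Olfr1507 list had 2 peaks in the window, on 2 of the 14 control Ldb1 regions, against 21.8% of all Ldb1 regions. They lay at the alpha site and in Zmat2 of the 5' flank, each at percentile 24.5. The site 19.3 kb after Pcdhac2 was therefore the single place in the span with Ldb1 in all 3 control and both Olfr1507 libraries. Per 1000 list peaks the Olfr1507 libraries had 0.393 and 0.612, both under the control values. At equal length the second library was not under them. The 21250 strongest peaks of control libraries 1 and 2 held 15 and 13 peaks in the window, and Olfr1507 library 2 held 13. Control library 3, whose whole list is shorter (16067), held 10. The Olfr1507 mean was 0.502 ± 0.155 (SD, n = 2). The difference from control was -0.127 (two-sided p = 0.1 by exact permutation of the libraries, the smallest possible, adjusted 0.1). It was -0.0179 without Olfr1507 library 1 and -0.237 without library 2. Among the top 5095 peaks of each list the difference turned to 0.131 (control 0.0654, Olfr1507 0.196, two-sided p = 0.7 by exact permutation of the libraries). It rested on 1 peak of control library 3 and 2 peaks of Olfr1507 library 1. The control libraries served both comparisons, which therefore share their chance deviations.

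**Figure D5:**
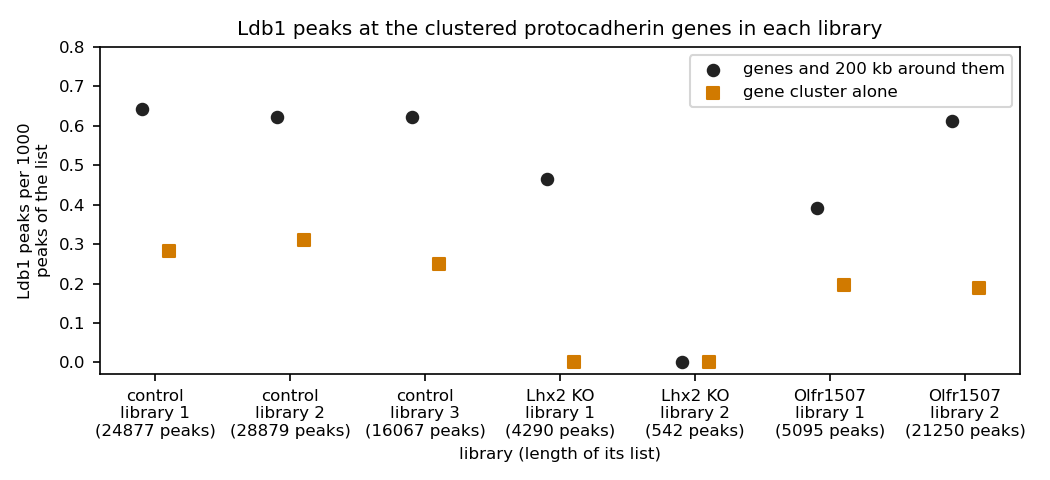
Ldb1 peaks per 1000 peaks of the list in each of the 7 Ldb1 libraries, over the genes with 200 kb on both sides (circles) and over the gene span alone (squares). Control libraries lie between 0.622 and 0.643 for the window, Lhx2 KO at 0.466 and 0, and Olfr1507 at 0.393 and 0.612.

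Protocadherins encoded outside the clusters were listed beside the members, and no difference between the lists was tested. Of 11 listed genes 8 had a known start, and 2 of the 8 had Ldb1 in at least 2 control libraries, against 11.7% of protein-coding genes. Pcdh10 had Ldb1 at percentiles 84.5, 85.5 and 74.0, above each of the clustered genes' sites in the same library. Pcdh17 had it at 50.3, 44.7 and 37.8. CTCF was in both libraries at Pcdh19 alone of the 8, at 46.2 and 44.5, against 10.4% of protein-coding genes. Rad21 was in both at 0 of the 8, against 4.53%. Of 8 listed regulators of the clusters, among them Ctcf, the cohesin subunit gene Stag1 and the chromatin repressor gene Smchd1, 6 had a known start. None of the 6 had CTCF or Rad21 in both libraries or Ldb1 in at least 2, beside the same shares of 10.4%, 4.53% and 11.7%.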

How the data were processed

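Peak lists of 11 ChIP-seq libraries were used; 3 input and 14 RNA samples were not analysed here. The score of each peak is a value the authors deposited, with a scaling that is not given. The submitters' processing notes name HOMER 4.7, Bowtie2 2.3.2, cutadapt 1.9.1, Picard, SAMtools 1.3.1, STAR 2.5.3a and the build mm10, but not what each did. Not given in the sources used here are the peak threshold, the input used for each list and the treatment of reads that fit several places; clustered protocadherin genes resemble each other, so such reads could affect their peaks. Each library has a list of its own.

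Only peaks on the autosomes, X and Y entered. Peaks that overlap by at least 1 base were joined, and a joined set counts as a region where at least 2 libraries of its group contribute. A member's promoter is 1 kb on both sides of its start, taken as its lower coordinate: the alpha genes share an end within 1240 bases, as do the gamma genes within 1384, and beta genes are known to run the same way. The background was 17492 of 21887 protein-coding genes, whose strand came from RefSeq promoters; 0 of them are on chromosome 18. Libraries were compared by exact permutation of 5 libraries, counting differences at least as large in absolute size, with Benjamini-Hochberg adjustment over 2 comparisons. Python 3.11.15 with pandas 2.3.3 was used, and the counting was tested on simulated data. No sequence of this locus is shown.

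Members, gene lists and tests were chosen with earlier results of these data known. Named were members with CTCF or Rad21 in both or Ldb1 in at least 2 control libraries, Pcdhac1, Pcdhac2, Pcdhb1, Pcdhgc3, Pcdhgc4 and Pcdhgc5, the 5 highest regions of each factor, and members of the other lists by the same rule. Markers of immature neurons, basal and progenitor cells and sustentacular cells were also listed: Gng8 had CTCF and Rad21 in both libraries, and the 2 basal and 1 sustentacular genes with a known start had neither, nor Ldb1.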

Additional observations from a re-analysis of the deposited data

How the results depend on the processing

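Changing the promoter window (500 bases, 2 kb, or 1 kb before to 3 kb after the start) or counting peak centres left the promoter counts at 11 or 12 for CTCF, 3 for Rad21 and 1 for Ldb1, and reciprocal overlap of at least 50% left the CTCF regions of the span at 15. Requiring 1 library gave 27 members for CTCF, 17 for Rad21 and 2 for Ldb1, and 32 CTCF regions. The upper 50% of each list by score gave 1 member each for CTCF (4.75% of protein-coding genes), Rad21 (1.89%) and Ldb1 (3.18%). It gave 3 CTCF regions. For CTCF the members thus went from above to below the share of all genes. Leaving out a library gave 17 to 21 members for CTCF, 4 to 16 for Rad21 and 21 to 26 CTCF regions. For Ldb1 it left 1 member, against 5.05% to 11.2% of protein-coding genes. A single remaining library of CTCF or Rad21 asks less than both do. The number of CTCF regions per Mb over the genome was not counted under these other settings. Among the top 542 peaks of each list the Lhx2 KO difference was 0, but no control or KO list had a peak in the window, so this setting cannot show a difference. Among the top 4290 peaks, KO library 1 had 2 peaks and each control list 0, the opposite direction. Among the top 5095 the Olfr1507 difference turned to 0.131 (p = 0.7 by exact permutation), from 1 peak of control library 3 and 2 of Olfr1507 library 1. Leaving out a library gave -0.630 to -0.163 for Lhx2 KO and -0.237 to -0.0179 for Olfr1507. With a replicate block over libraries 1 and 2 the differences were -0.400 and -0.131 (exact sign-flip p = 0.5, the smallest possible); the numbers are not said to pair libraries, and the differences between numbers correlated at 0.0613 and -0.0616 across regions. List length limits each count, since depth is unknown.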
